A study of Saccharomyces bayanus x Saccharomyces cerevisiae with 8 samples.

Results

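The genes of the pentose phosphate pathway and their paralogs were examined by allele in OZY27, a diploid hybrid yeast with 1 genome of Saccharomyces cerevisiae and 1 of Saccharomyces bayanus. The genes were taken by systematic ORF name from a list of 10, which was chosen with earlier results of these data known. Of the 10, 9 are among the 4238 ortholog pairs of the table. They are SOL3 (YHR163W), GND1 (YHR183W), GND2 (YGR256W), RKI1 (YOR095C), RPE1 (YJL121C), TKL1 (YPR074C), TKL2 (YBR117C), TAL1 (YLR354C) and NQM1 (YGR043C), and ZWF1 (YNL241C), which encodes the first enzyme of the pathway, was not analysed here.

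Per the labels, the S. cerevisiae genome is isogenic to W303 and carries his3, leu2, lys2, trp1 and ura3, and the S. bayanus genome derives from CBS 4001 and carries ade2, his3 and lys2. The his3 and lys2 markers are thus in both genomes, and all samples share this genotype, the glucose medium YPD and growth at 25°C to log phase. Biological replicates 1 and 2 are separate cultures of this 1 strain, each made into 1 RNA library. Each of the 8 samples is a sequencing lane, 5 of replicate 1 (lanes 1, 2 and 5 at UCB, lanes 6 and 8 at UCR) and 3 of replicate 2 (lanes 3 and 4 at UCB, lane 7 at UCR). Lanes held 2350222 to 3159446 reads assigned to an allele, 48.8% of them from S. cerevisiae in replicate 1 and 47.3% in replicate 2, and reads were summed per culture for levels and allele ratios (n = 2). Where single lanes are the units instead, this is said.

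The pentose phosphate pathway oxidises glucose 6-phosphate to make NADPH for biosynthesis and defence against oxidants, and it makes ribose 5-phosphate for nucleotides. Its oxidative branch runs from the glucose 6-phosphate dehydrogenase Zwf1 through a 6-phosphogluconolactonase (Sol3, Sol4) to a 6-phosphogluconate dehydrogenase (Gnd1, Gnd2). Its non-oxidative branch interconverts sugar phosphates through the ribose 5-phosphate ketol-isomerase Rki1, the ribulose 5-phosphate epimerase Rpe1, the transketolases Tkl1 and Tkl2, and the transaldolases Tal1 and Nqm1. In S. cerevisiae, Gnd1, Tkl1 and Tal1 are known as the major enzymes of their steps in glucose, and Gnd2, Tkl2 and Nqm1 as their minor paralogs.

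The 9 listed genes were expressed in 2 tiers. Levels are given as RPKM, the reads of an allele per kilobase of its mappable length and per 1000000 reads of both alleles in a culture. In such bulk RNA, fewer cells expressing a gene and less RNA per cell cannot be told apart. Summed over both alleles, GND1 stood at 2090 ± 695 RPKM, TAL1 at 1663 ± 380 and TKL1 at 1602 ± 235 (SD, n = 2), at percentiles 97.6 to 98.5 of the 4238 genes. RPE1 (837 ± 124), RKI1 (751 ± 123) and SOL3 (712 ± 121) followed, at percentiles 92.4 to 93.7 of all genes. RPE1 was above SOL3 in each culture, at 750 against 627 RPKM in replicate 1 and 924 against 798 in replicate 2, whereas RKI1 was the highest of the 3 in replicate 1 (838) and the lowest in replicate 2 (664). The minor paralogs stood at 9.51 ± 0.295 RPKM for TKL2, 7.02 ± 0.483 for GND2 and 6.88 ± 4.63 for NQM1 (SD, n = 2), between the 3.63th and the 5.40th percentile, against a median gene at 90.6. Their order is not resolved, since replicate 1 had NQM1 at 10.2 and TKL2 at 9.30 and replicate 2 had them at 3.60 and 9.72. SOL4, which is not one of the 9, lay between the tiers, at 35.8 ± 16.6 RPKM (SD, n = 2) and percentile 22.4.

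**Figure D1:**
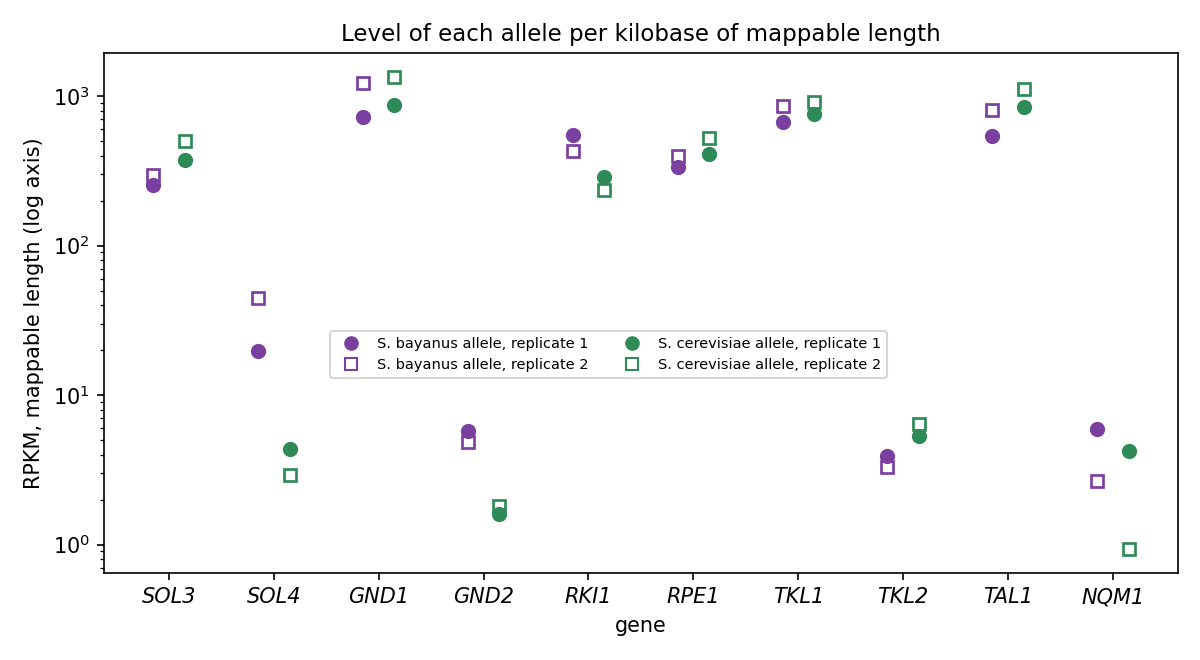
Level of each allele, in reads per kilobase of mappable length per 1000000 reads (RPKM, log axis), for the pathway genes and SOL4; filled circles are replicate 1 and open squares replicate 2. GND1, TKL1, TAL1, RPE1, RKI1 and SOL3 lie above 200 RPKM for both alleles, whereas GND2, TKL2 and NQM1 lie below 10. In replicates 1 and 2, SOL4 lies at 19.7 and 44.6 for the S. bayanus allele and at 4.33 and 2.92 for the S. cerevisiae allele.

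Alleles of the pathway differed in 8 of the 9 genes, in both directions. The S. cerevisiae allele was higher in SOL3, GND1, RPE1, TKL1, TKL2 and TAL1, by 1.19-fold to 1.71-fold. The S. bayanus allele was higher in RKI1 by 1.74-fold and in GND2 by 2.94-fold. NQM1 did not pass the test. A gene was called when the edgeR quasi-likelihood p, adjusted by Benjamini-Hochberg over the 4197 genes tested, was under 0.05. All 9 genes were among those tested, the filter being 10 reads or more per replicate, alleles summed.

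Of all tested genes 53.5% were called, 26.9% toward S. cerevisiae and 26.6% toward S. bayanus. The pathway had 6 of 9 toward S. cerevisiae and 2 of 9 toward S. bayanus. Its median log2 ratio (S. bayanus minus S. cerevisiae) was -0.32, against -0.0028 over all tested genes, and its median absolute log2 ratio was 0.68 against 0.37. With 9 genes these are descriptions of the list and no test of it.

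The main scaling treats the genomes of a culture as separate libraries. With 1 common library size instead, which moves the median of all genes by 0.11 toward S. bayanus, all 9 genes kept their direction, and 5 were called, 3 toward S. cerevisiae (SOL3, RPE1 and TAL1) and 2 toward S. bayanus (GND2 and RKI1). Over all genes the calls were then 1319 for S. bayanus and 813 for S. cerevisiae, where the main scaling gave 1117 and 1129.

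In the oxidative branch, SOL3 had 496, 457, 487, 511 and 527 reads of the S. bayanus allele in lanes 1, 2, 5, 6 and 8, against 701, 775, 653, 751 and 726 of the S. cerevisiae allele. In lanes 3, 4 and 7 of replicate 2 it had 567, 559 and 491 against 961, 966 and 785. The S. cerevisiae allele was higher in 8 of 8 lanes, and the reads of the alleles did not overlap in either culture. The levels were 276 ± 30.1 RPKM for S. bayanus and 436 ± 90.8 for S. cerevisiae (SD, n = 2). The log2 ratio was -0.76 (SE 0.10; edgeR adjusted p = 0.00348).

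GND1, the major 6-phosphogluconate dehydrogenase, had a smaller difference in the same direction. Its alleles stood at 977 ± 357 RPKM for S. bayanus and 1112 ± 338 for S. cerevisiae (SD, n = 2), with 7606 against 9877 reads in replicate 1 and 7209 against 8545 in replicate 2. The levels of the alleles overlap when cultures are pooled, because both were higher in replicate 2, while within each culture the S. cerevisiae allele was higher. The log2 ratio was -0.32 (SE 0.08; edgeR adjusted p = 0.0190). With 1 library size for both alleles it was -0.20 and not called (edgeR, adjusted p = 0.0859), and the DESeq2 adjusted p was 0.0545. The authors' deposited table has GND1 at a natural log ratio of -0.19 in replicate 1 and -0.09 in replicate 2 and does not call it.

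GND2, its paralog, went the other way. The S. bayanus allele had 19, 15, 18, 18 and 19 reads in lanes 1, 2, 5, 6 and 8 and 20, 9 and 13 in lanes 3, 4 and 7. The S. cerevisiae allele had 10, 5, 3, 5 and 7 reads in the lanes of replicate 1 and 6, 7 and 6 in those of replicate 2. The S. bayanus allele was higher in 8 of 8 lanes, with the narrowest margin, 9 against 7 reads, in lane 4. Summed reads were 89 against 30 in replicate 1 and 42 against 19 in replicate 2, which puts the S. bayanus share of reads at 74.8% (66.0 to 82.3, exact binomial interval at 95%) and 68.9% (55.7 to 80.1). These intervals cover counting error only, since PCR copies of a molecule cannot be recognised here. The log2 ratio, 1.55 (SE 0.27), passed the test (edgeR adjusted p = 0.00745) and is larger in size than that of 94.2% of all tested genes.

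In the non-oxidative branch, RKI1 was the member of the highly expressed tier with a higher S. bayanus allele. It had 1249, 1138, 1132, 1046 and 1061 S. bayanus reads in the lanes of replicate 1 against 647, 636, 510, 590 and 548 S. cerevisiae reads, and 923, 824 and 710 against 541, 470 and 324 in those of replicate 2. The alleles did not overlap in either culture, and their levels were 491 ± 85.3 and 261 ± 37.6 RPKM (SD, n = 2). The log2 ratio was 0.80 (SE 0.09; edgeR adjusted p = 0.00205), and it lay between 0.65 and 1.09 in single lanes.

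RPE1, the epimerase that acts on the same ribulose 5-phosphate, was higher from the S. cerevisiae genome, at 469 ± 78.9 against 368 ± 44.6 RPKM (SD, n = 2). Its log2 ratio was -0.46 (SE 0.09; edgeR adjusted p = 0.0103), and 8 of 8 lanes had this direction, from -0.75 in lane 3 to -0.27 in lane 1. RKI1 and RPE1, the genes of the enzymes that draw on ribulose 5-phosphate, therefore had allele differences in RNA of opposite direction in the same cultures.

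TAL1 had the largest ratio among the 3 most highly expressed genes of the pathway. Its S. cerevisiae allele had 9749 reads in replicate 1 and 7209 in replicate 2, against 6239 and 5180 of the S. bayanus allele, at levels of 987 ± 194 and 676 ± 186 RPKM (SD, n = 2). The log2 ratio was -0.68 (SE 0.08; edgeR adjusted p = 0.00237), and single lanes lay between -0.78 and -0.56. TKL1, the major transketolase, had the smallest ratio that was called, -0.25 (SE 0.07; edgeR adjusted p = 0.0362), at 837 ± 105 against 765 ± 130 RPKM (SD, n = 2). Its 8 lanes lay between -0.32 and -0.18, with a median of -0.23 in replicate 1 and -0.25 in replicate 2. The call did not hold with UCB lanes alone (edgeR, adjusted p = 0.0650), without lane 7 (edgeR, adjusted p = 0.0537), with 1 library size for both alleles (edgeR, adjusted p = 0.177) or in DESeq2 (adjusted p = 0.138). The authors' deposited table does not call it either.

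TKL2, the minor transketolase, had 25, 22, 17, 20 and 22 S. bayanus reads against 33, 30, 29, 25 and 30 S. cerevisiae reads in the lanes of replicate 1, and 13, 27 and 10 against 35, 35 and 28 in those of replicate 2. The S. cerevisiae allele was higher in each of the 8 lanes, and lanes 3 and 7 had the largest ratios, -1.49 and -1.60. The log2 ratio was -0.77 (SE 0.21; edgeR adjusted p = 0.0290). It was not called with 1 library size for both alleles (edgeR, adjusted p = 0.0560) or in DESeq2 (adjusted p = 0.124).

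NQM1, the transaldolase paralog, had 15, 22, 9, 19 and 14 S. bayanus reads against 10, 9, 13, 12 and 13 S. cerevisiae reads in the lanes of replicate 1, and 8, 5 and 7 against 3, 1 and 3 in those of replicate 2. The S. bayanus allele had more reads in 7 of 8 lanes, and lane 5 had the opposite order. The S. bayanus share was 58.1% (49.3 to 66.5) in replicate 1 and 74.1% (53.7 to 88.9) in replicate 2 (exact binomial intervals at 95%). The log2 ratio, 0.60 (SE 0.32), did not pass the test (edgeR adjusted p = 0.165). The cultures taken singly gave 0.39 in replicate 1 and 1.37 in replicate 2.

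**Figure D2:**
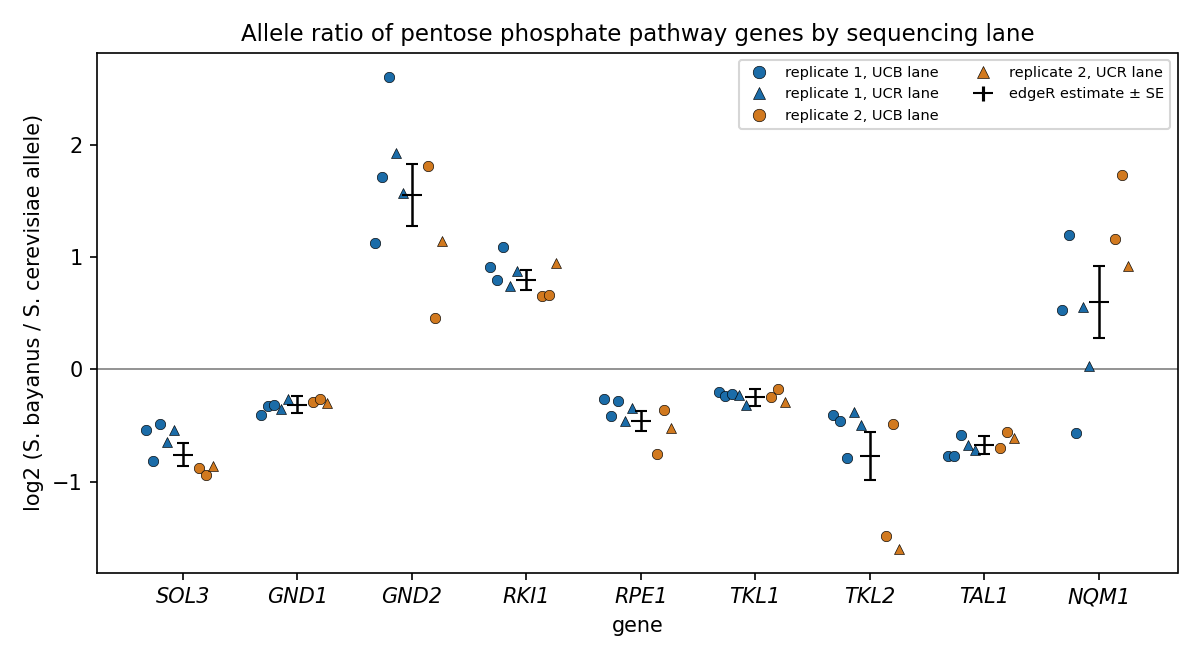
Log2 ratio of the S. bayanus to the S. cerevisiae allele in each lane, computed with 0.5 added to each read number; blue is replicate 1, orange replicate 2, circles are UCB and triangles UCR lanes, and black bars are the edgeR estimate with its standard error. GND2 and RKI1 lie above 0 in 8 of 8 lanes, the 6 genes called toward S. cerevisiae lie below 0 in 8 of 8, and NQM1 lies on both sides.

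Lanes were run at 2 sites, which read the same libraries, and values were recomputed at each. From UCB and UCR lanes alone, the log2 ratios were -0.77 and -0.73 for SOL3, -0.32 and -0.31 for GND1, and 1.54 and 1.59 for GND2. They were 0.78 and 0.87 for RKI1, -0.44 and -0.46 for RPE1, -0.23 and -0.29 for TKL1, -0.72 and -0.82 for TKL2, and -0.68 and -0.66 for TAL1. NQM1 had the widest gap, 0.68 against 0.42. The direction was the same at both sites for all 9 genes.

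The authors' deposited table called 6 of the 9 genes, GND2 and RKI1 toward S. bayanus and SOL3, RPE1, TKL2 and TAL1 toward S. cerevisiae. Each of these had the direction of the edgeR test. In all, the authors' deposited table calls 48.9% of its 4238 genes.

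Major and minor paralogs were compared within each genome, since the hybrid holds both copies from both species. SOL4 (YGR248W), the second 6-phosphogluconolactonase, was added for this comparison. GND1 exceeded GND2 by 126-fold in replicate 1 and 253-fold in replicate 2 among S. bayanus alleles, and by 542-fold and 740-fold among S. cerevisiae alleles. GND2 thus made up 0.787% and 0.393% of the summed GND1 and GND2 levels in the S. bayanus genome and 0.184% and 0.135% in the S. cerevisiae genome. The minor copy held the larger share in the S. bayanus genome in both cultures.

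SOL3 and SOL4 had the same arrangement with a wider gap. SOL4 had 213 and 270 S. bayanus reads in replicates 1 and 2, against 45 and 17 S. cerevisiae reads. It made up 7.17% and 13.0% of the SOL3 and SOL4 levels in the S. bayanus genome and 1.15% and 0.581% in the S. cerevisiae genome. The log2 allele ratio of SOL4 was 2.80 (SE 0.37; edgeR adjusted p = 0.00343), while that of SOL3 had the opposite sign. Of the difference in log2 allele ratio between minor and major copy, 2.73 was measured in replicate 1 and 4.68 in replicate 2, and it was positive in 8 of 8 lanes.

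TAL1 exceeded NQM1 by 92.2-fold and 302-fold in the S. bayanus genome and by 200-fold and 1203-fold in the S. cerevisiae genome, the last resting on 7 NQM1 reads. The difference in log2 allele ratio between NQM1 and TAL1 lay between 0.02 and 2.29 in single lanes, and the allele ratio of NQM1 itself was not called. The transketolases did not follow the arrangement of GND1 and GND2. TKL1 exceeded TKL2 by 171-fold and 258-fold among S. bayanus alleles and by 142-fold in each culture among S. cerevisiae alleles, so TKL2 made up the larger share in the S. cerevisiae genome. The difference in log2 allele ratio between minor and major copy was 1.83 ± 0.393 for GND2 and GND1, 3.71 ± 1.38 for SOL4 and SOL3, 1.55 ± 0.620 for NQM1 and TAL1, and -0.56 ± 0.419 for TKL2 and TKL1 (SD, n = 2). With 2 cultures no permutation test of these differences can reach the threshold, and they were not tested.

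Reads can be placed in only part of some of these genes. Mappable bases made up 48.5% of the S. bayanus and 52.3% of the S. cerevisiae GND1 (713 of 1470 and 769 of 1470 bases), and 59.7% and 60.5% of TKL1. The medians over all genes were 91.0% and 90.9%, and 2.08% of genes had less than 60% in the S. bayanus ortholog. In GND2 the mappable part differed between the orthologs, at 71.1% and 85.6%, and it was 77.4% in both orthologs of TAL1. The other members lay between 82.3% and 91.1%. The part played by reads shared between close paralogs was not tested. Without the length correction the 9 genes kept their direction.

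The GC content of the S. bayanus ortholog was higher in all 9 genes, by 1.10 percentage points in GND1 to 5.77 in TAL1, with a median of 3.07 against 1.75 over all genes. After the trend of the log2 ratio with this difference was removed, RPE1 stood at -0.65, TAL1 at -0.87, TKL1 at -0.42, RKI1 at 0.64 and GND2 at 1.41, and the number of genes called was again 8.

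A list of 14 side genes holds the other lactonase-like genes (SOL1, SOL2 and SOL4) and genes that lead into or out of the pathway. Of these 14, all of them tested, 4 had the higher S. bayanus allele and 5 the higher S. cerevisiae allele by the test, with a median log2 ratio of 0.08. Over all tested genes the shares were 26.6% and 26.9%. Of the 4, 3 were the lactonase-like genes. The 4 were SOL4, SOL2 (YCR073W-A), SOL1 (YNR034W), and the aldose reductase gene GRE3 (YHR104W). SOL2 and SOL1 are relatives of the lactonases, and with SOL4 they had the largest ratios toward S. bayanus, at 1.45 for SOL2 (SE 0.38; edgeR adjusted p = 0.0242) and 1.38 for SOL1 (SE 0.11; edgeR adjusted p = 0.00105). The 5 were the xylulokinase gene XKS1 (YGR194C), the sedoheptulose bisphosphatase gene SHB17 (YKR043C), the ribokinase gene RBK1 (YCR036W), and PRS2 (YER099C) and PRS4 (YBL068W), 2 of the 5 genes of ribose-phosphate pyrophosphokinase, which draws ribose 5-phosphate into nucleotide synthesis. SOL1, GRE3 and these 5 are named after their values were seen.

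XKS1 had the largest ratio toward S. cerevisiae in this list, at -1.28 (SE 0.18; edgeR adjusted p = 0.00370). SOL3 was the one gene of the SOL family with a higher S. cerevisiae allele, and SOL1, SOL2 and SOL4 kept the opposite direction with 1 library size too, at 1.49, 1.56 and 2.91. Between the cultures, each with 1 library, lanes were the units, so p measures the spread between lanes of a library. The allele by culture interaction was 1.59 for SOL2 (SE 0.12, edgeR adjusted p = 6.69e-12) and 1.66 for SOL4 (SE 0.43, edgeR adjusted p = 0.00682). The GC content of their S. bayanus orthologs was 10.7 and 10.1 percentage points higher; without the GC trend the allele ratios were 1.07 and 2.47. Their part in the allele ratios was not tested otherwise.

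**Figure D3:**
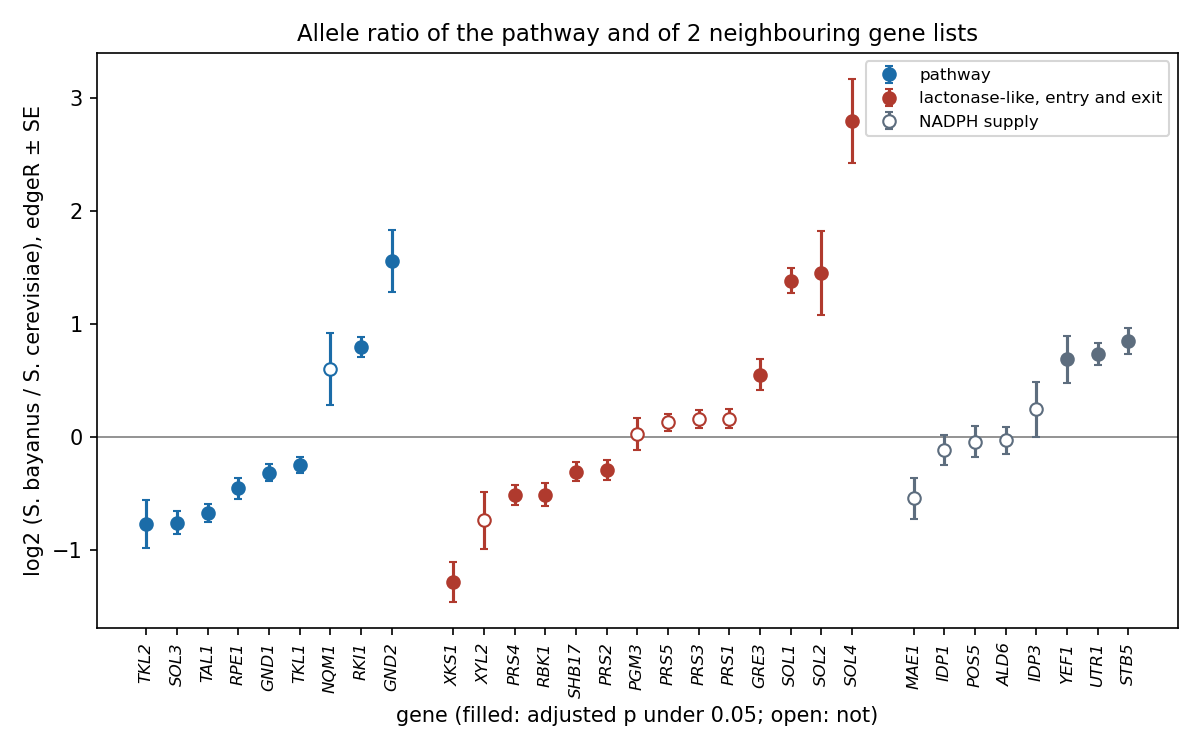
Log2 allele ratio (S. bayanus over S. cerevisiae) with its standard error in edgeR for the 9 pathway genes, 14 side genes (lactonase-like, entry and exit) and 8 genes of NADPH supply; filled symbols passed an adjusted p of 0.05. The pathway has 6 filled symbols below 0 and 2 above, and the NADPH list has 3 above and 0 below.

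Of 9 genes for other sources of NADPH and for the regulator of the pathway, 8 were tested, of which 3 passed with the S. bayanus allele higher and 0 with the S. cerevisiae allele higher, against 26.6% and 26.9% of all tested genes. The malic enzyme gene MAE1 (YKL029C) lay just outside, at -0.54 (SE 0.18, edgeR adjusted p = 0.0525). Its cultures were unlike, at -0.93 in replicate 1 and -0.16 in replicate 2. The number called in this list was 2 without lane 1, lane 3 or lane 7, and 5 and 6 without replicate 1 and replicate 2, with lanes then as units. STB5 (YHR178W), which encodes a zinc cluster transcription factor known to activate pathway genes in S. cerevisiae under oxidative stress, was at 0.85 on the log2 scale (SE 0.12; edgeR adjusted p = 0.00381). Its S. bayanus allele stood at 22.7 ± 1.57 RPKM and its S. cerevisiae allele at 11.7 ± 0.192 (SD, n = 2), apart in both cultures and higher in 8 of 8 lanes. UTR1 (YJR049C) and YEF1 (YEL041W), which encode NAD(H) kinases that make NADP(H), had 0.74 (edgeR, adjusted p = 0.00328) and 0.68 (edgeR, adjusted p = 0.0402). ALD6 (YPL061W), the cytosolic aldehyde dehydrogenase that is the other main source of NADPH, was at -0.03 (SE 0.12) and did not pass the test (edgeR adjusted p = 0.850). This averages opposite ratios, -0.25 in replicate 1, with 5 of 5 lanes below 0, and 0.19 in replicate 2, with 3 of 3 above 0. The interaction with culture was 0.41 for ALD6 (SE 0.05; edgeR adjusted p = 3.82e-08). YEF1, MAE1, ALD6 and IDP1 are named after their values were seen.

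The allele ratio of 1 of the 9 genes differed between the cultures, where 17.9% of all tested genes did (edgeR, allele by culture interaction with lanes as units). Because each culture gave 1 library, this p measures the spread between lanes of a library, and culture and library cannot be told apart. For SOL3 the cultures had log2 ratios of -0.63 (replicate 1) and -0.90 (replicate 2), and the interaction came to -0.29 (SE 0.07; edgeR adjusted p = 0.00515). Its lanes lay between -0.81 and -0.49 in replicate 1 and between -0.94 and -0.86 in replicate 2, which do not overlap. From UCB lanes alone it was -0.30 and not called (edgeR adjusted p = 0.0671), nor was it in DESeq2 (adjusted p = 0.143). UCR holds 1 lane of replicate 2, at -0.86, beside -0.65 and -0.54 in its lanes of replicate 1. RPE1, which was not called at a shift of -0.19 (edgeR, adjusted p = 0.0924), was called at -0.35 after removal of the GC trend (edgeR, adjusted p = 2.94e-05). It was also called without lane 4, at -0.24 (edgeR adjusted p = 0.0243), but was -0.04 without lane 3 (edgeR adjusted p = 0.822). Its size thus depended on which lane was left out.

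For the other members the shift was small or poorly measured. It was 0.05 for GND1, 0.0044 for TKL1 and 0.08 for TAL1, with standard errors of 0.05, 0.04 and 0.05, and -0.14 ± 0.08 (SE) for RKI1. It was -0.50 ± 0.51 (SE) for GND2, -0.59 ± 0.31 for TKL2 and 0.93 ± 0.66 for NQM1, the genes with few reads. None of these 7 passed the test.

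The level of the pathway genes, summed over both alleles, differed between the cultures as well. GND1 stood at 1189 reads per 1000000 (CPM) in replicate 1 and 1916 in replicate 2, 1.61-fold higher, and TAL1 stood at 1087 and 1507, 1.39-fold higher in replicate 2. NQM1 stood at 9.25 and 3.28 CPM, 2.78-fold higher in replicate 1, on 79 and 57 reads of its alleles there and 20 and 7 in replicate 2. Changes of at least 1.5-fold were thus found in 2 of 9 genes, GND1 and NQM1, against 10.7% of all tested genes. From UCB and UCR lanes alone the log2 change was 0.72 and 0.66 for GND1 and -1.58 and -1.14 for NQM1. There is 1 library per culture, so these differences have no replicate check.

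The lanes of the cultures did not overlap in 7 of the 9 genes, against 53.5% of all tested genes. In 5 genes (SOL3, GND1, RPE1, TKL1 and TAL1) all lanes of replicate 2 were higher, against 17.9% of all genes, and in RKI1 and NQM1 all lanes of replicate 1 were higher, against 35.5%. SOL3, RPE1 and TKL1 were 1.27-fold, 1.23-fold and 1.23-fold higher in replicate 2, and RKI1 was 1.26-fold higher in replicate 1. The median gene had a log2 change of -0.12 from replicate 1 to replicate 2 on this scale and -0.01 with TMM scaling, and each of the 7 genes kept its direction under TMM scaling. TKL2 stood at 17.2 and 18.0 CPM and GND2 at 8.09 and 7.42, with overlapping lanes.

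In each of the 6 highly expressed genes both alleles were higher in the same culture, by unequal amounts. From replicate 1 to replicate 2, the log2 change was 0.76 for the S. bayanus and 0.63 for the S. cerevisiae allele of GND1, 0.57 and 0.40 for those of TAL1, 0.35 and 0.26 for those of TKL1, and -0.36 and -0.30 for those of RKI1. It was 0.22 and 0.43 for SOL3, the gene whose allele ratio was called as different between the cultures, and 0.25 and 0.35 for RPE1. In NQM1 both alleles were lower in replicate 2, by -1.12 and -2.10. The alleles of GND2 and TKL2 had changes of opposite sign, -0.24 and 0.19 for GND2 and -0.24 and 0.26 for TKL2, on few reads.

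**Figure D4:**
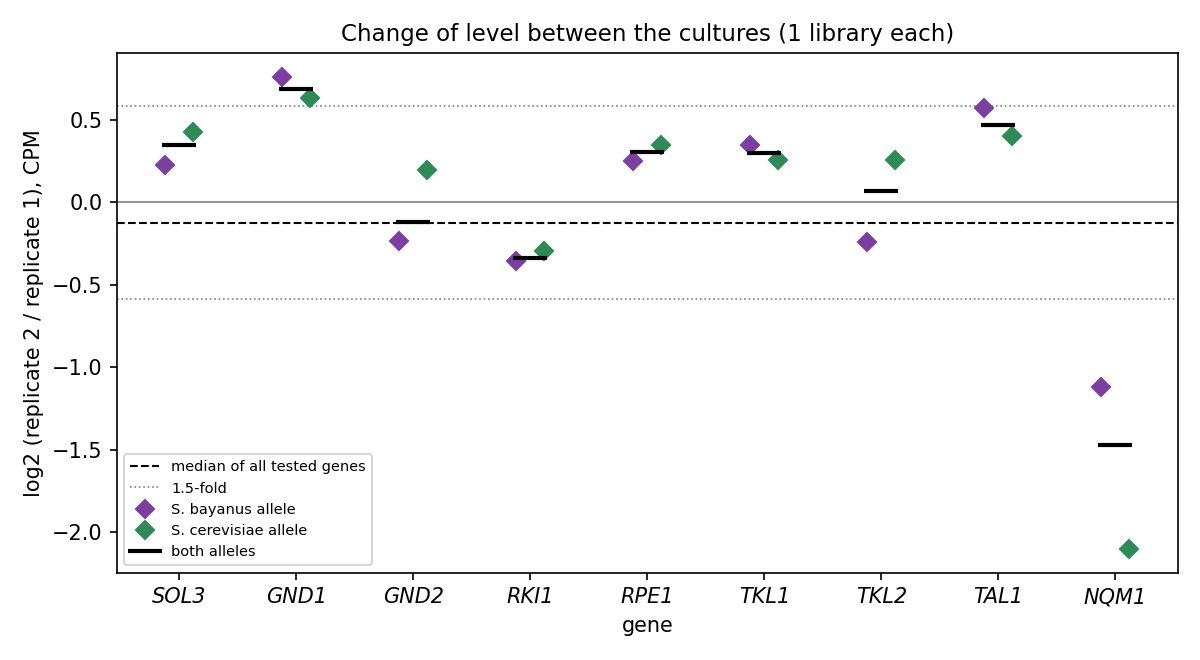
Log2 change of reads per 1000000 from replicate 1 to replicate 2 for the S. bayanus allele (purple), the S. cerevisiae allele (green) and both together (black bar); the dashed line is the median of all tested genes at -0.12 and dotted lines mark 1.5-fold. GND1 lies above the upper dotted line for both alleles, and NQM1 lies below the lower one.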

How the data were processed

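The authors deposited read counts, not normalized, for both alleles of 4238 ortholog pairs in each lane. Bowtie was used, per the submitters' processing notes, with version, builds and annotation not given in the sources used here. Also deposited by the authors were mappable and full lengths, the GC difference as a fraction, natural log (ln) ratios with an unstated start, resampling p-values and a call score of -1, 0 or 1. Another 6 columns were not used.

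Lane counts were summed per culture and allele. edgeR 4.0.16 (R 4.3.3) fitted a quasi-likelihood model with the replicate as block, since a library holds both alleles, with TMM factors per column and the log mappable length as offset. Genes needed 10 reads per replicate. Alternatives changed the scaling, filter, offset, block, lanes and tool. ZWF1 and IDP2 were not analysed here. The culture interaction used the lane and allele columns as units, with the lane as block. DESeq2 1.42.0 was an alternative. A lowess of span 0.3 removed GC trends. Python 3.11.15 with scipy 1.17.1 gave intervals.

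All 9 members present are named; from each side list, the 2 called genes with the largest ratio, SOL4 and STB5 are named. Members and lists were chosen with earlier results of these data known. P-values measure the spread between these 2 cultures or, where said, lanes. In edgeR the variance of a gene is drawn toward that of the other tested genes. A standard error therefore need not match the spread of that gene alone.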

Additional observations from a re-analysis of the deposited data

Results flagged for a closer look

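The log2 allele ratio of SOL3 differed between the cultures by -0.29 (replicate 2 minus replicate 1) in the edgeR interaction test, which sets it against the spread between lanes. Among the 5 lanes of replicate 1, the log2 ratio of TKL2 in lane 5, -0.79, lay apart from the other 4, which were between -0.49 and -0.38; it rests on 17 S. bayanus and 29 S. cerevisiae reads. Such a gap was looked for in 18 sets of 5 lanes, and chance marks about 5% of sets.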

How the results depend on the processing

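Of 206 recomputed allele ratios of single pathway genes, none reversed, 14 lost and 1 gained a call. The number of pathway genes called, 8, fell to 5 with 1 library size for both alleles, 5 in DESeq2 (SOL3, GND2, RKI1, RPE1 and TAL1 in both) and 2 with no replicate block (GND2 and RKI1), where the number over all genes was 866 against 2246 with the replicate as block. It was 7 or 8 with each lane left out (7 without lane 7) or each culture left out, where lanes became the units. UCB lanes alone gave 7, without TKL1, and lanes as units with 1 library size gave 9, with NQM1; the other alternatives gave 8. Over all genes DESeq2 called 759 genes for S. bayanus and 747 for S. cerevisiae, against 1117 and 1129. For the culture difference, DESeq2 called 281 genes and UCB lanes alone 408, against 752. Of the pathway genes DESeq2 and edgeR on UCB lanes called 0 (1 and 3 at an unadjusted p under 0.05), 2 were called after removal of the GC trend, and 1 to 2 with each lane left out. The shifts of TKL1 and TAL1, not called, became -0.061 and -0.080 without the GC trend, and that of TKL1 ran from -0.00045 to 0.067 with each lane left out. The log2 ratio of TKL1 to TKL2 levels was 6.80 per full length and 7.39 per mappable length, and that of GND1 to GND2 was 7.61 and 8.18. The causes were not tested. The alternatives for the level between cultures and lanes with 1 library size were chosen after seeing the data; TMM scaling gave 3 pathway genes at 1.5-fold, TAL1 in addition. GND2, TKL2 and NQM1 rest on 7 to 147 reads per allele and culture and had the largest standard errors of the 9 genes.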
